A study of Homo sapiens with 4 samples.

Results

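NRF2 antioxidant genes and NADPH oxidases form a list of 46 genes that make, sense or remove reactive oxygen species, taken here from the 63677 genes of the RNA-seq table by gene symbol. Where a symbol had several rows, the row with the highest mean was kept. NOX5 was put on the list because it was lower in siAXL, so its difference is given as a description without a test, and the counts of changed genes leave it out. The cells were MDA-MB-231, an established human triple-negative breast cancer line. They were transfected with a control siRNA (siCt, 2 libraries) or with pooled siRNAs to AXL (siAXL, 2 libraries), which encodes a TAM receptor tyrosine kinase. All 4 libraries came from this single line, the knockdown was transient and partial, and the time between transfection and lysis is not given in the sources used here. The labels do not say whether libraries of a group came from separate cultures, so the p-values measure the spread between these libraries, which may be technical.

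NADPH oxidases pass electrons across a membrane to oxygen and so make superoxide or hydrogen peroxide. NFE2L2 encodes NRF2, the transcription factor that KEAP1 holds in the cytoplasm and marks for destruction until oxidants or electrophiles modify KEAP1. Freed NRF2 pairs with a small MAF protein on antioxidant response elements and drives genes of glutathione synthesis, the thioredoxin system, quinone reduction and iron storage. Peroxiredoxins, glutathione peroxidases, superoxide dismutases and catalase then remove the oxidants.

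Values are normalized counts, which are reads per gene divided by a DESeq2 size factor for each library. The libraries held 39574387 to 44585773 reads. AXL fell to 26.4% of its siCt level (-1.93 in log2, standard error 0.0918, adjusted p = 0.000585 by limma). The mesenchymal markers VIM and CD44 were high in all libraries, with means in siCt of 89649 and 36416 normalized counts. ESR1 and PGR, the hormone receptors that triple-negative cells lack, had 7 and 3 reads over all 4 libraries. ERBB2 was not near 0, at a mean of 3019 normalized counts in siCt. Of the epithelial markers, CDH1 had 92.2 in siCt and EPCAM 595. Markers of endothelium and of leukocytes were at or near 0 for PECAM1 (0 reads), CDH5 and ITGAM (3 reads each) and PTPRC (45 reads), while CD14 had 358 reads. CDH1 was lower in siAXL (log2 fold change -1.64, adjusted p = 0.00847) and ERBB2 higher (0.26, adjusted p = 0.0258). EPCAM (0.32, adjusted p = 0.0513) and CD14 (0.57, adjusted p = 0.0509) lay above in both siAXL libraries and were called by edgeR (adjusted p = 0.043 and 0.048) but not by limma or DESeq2. The part of these markers in the results below was not tested. limma was run on log2(normalized count + 1), where changes of low genes come out too small, over the 16064 genes that passed a filter on low counts. A gene was called when its Benjamini-Hochberg adjusted p was under 0.05, and every adjusted p below is from limma over all genes tested, unless another test is named.

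Of the antioxidant transcripts that were called, most were lower in siAXL. Of the 45 members other than NOX5, 43 passed the filter on low counts, and 10 fell and 1 rose. The genes that fell were GCLC and GCLM, which make glutathione, TXN, TXNRD1 and PRDX3 of the thioredoxin system, NQO1, MGST1 and AKR1C2, which act on quinones, lipids and carbonyls, and the ferritin chains FTH1 and FTL. GSTM3, a glutathione transferase, rose. Over all genes tested, 7.91% were called lower, 10.8% called higher and 18.7% called in either direction, against 25.6% of the members tested. The members were chosen with earlier results of these libraries known, so this share is a description of the list. The median log2 fold change of the 43 was -0.086, against -0.0022 over all genes tested. edgeR called 10 members lower and 2 higher, against 7.92% and 11.5% of all genes tested and 19.4% in either direction. DESeq2 called 10 lower and 1 higher, against 8.57% and 11.5%, and 20.1% in either direction. The groups overlapped for 10 of the 43 members and did not for the rest, with siAXL below siCt for 18 and above it for 15. Over all genes tested they did not overlap for 61.2%, with siAXL below for 30.5% and above for 30.6%. In bulk RNA, fewer cells with a transcript and less of it per cell cannot be told apart.

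**Figure D1:**
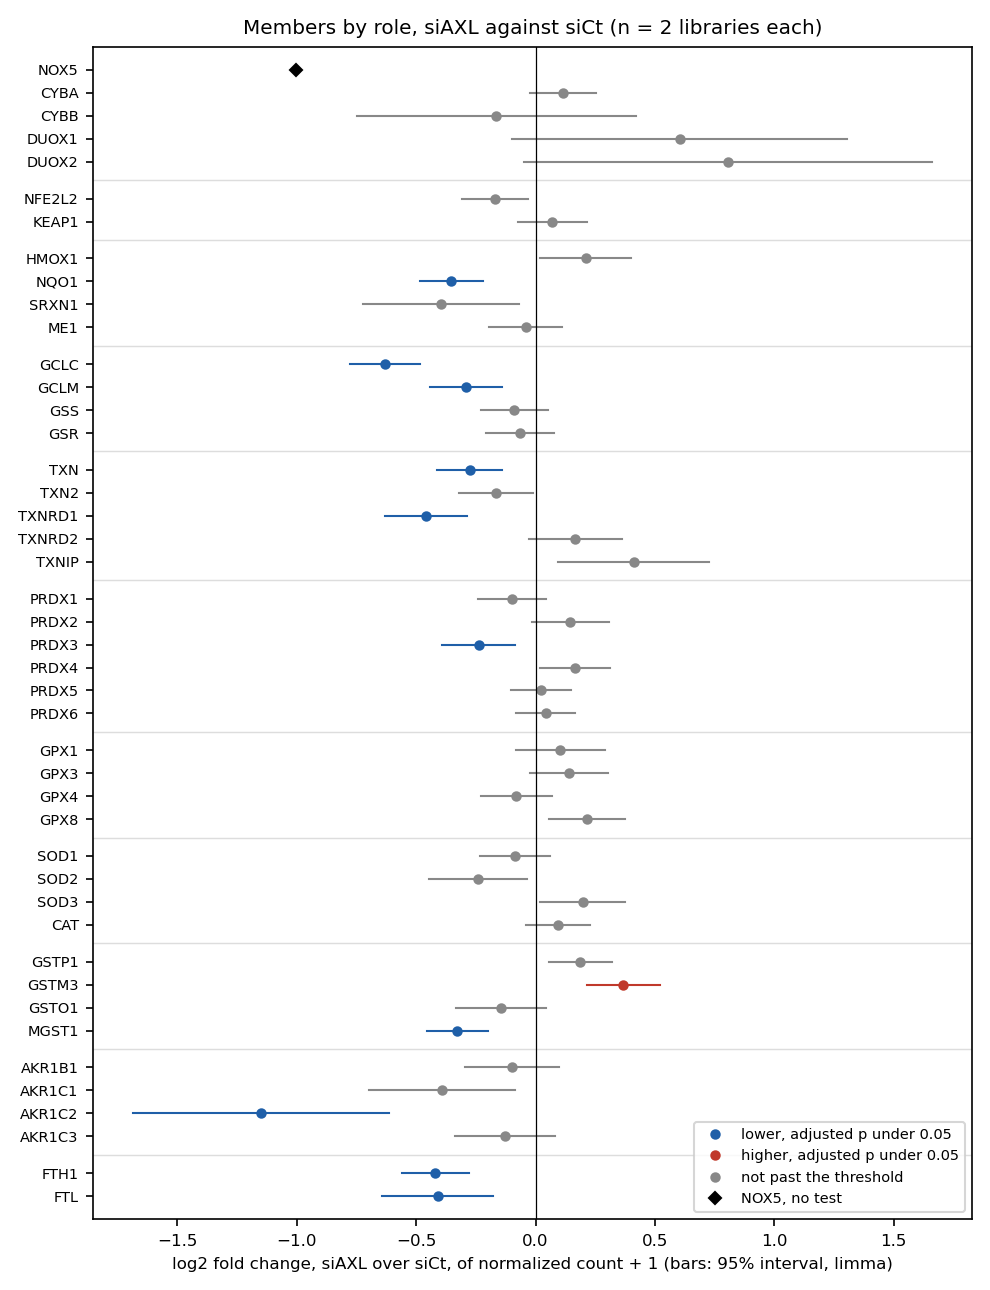
Log2 fold change of siAXL over siCt on the log2(normalized count + 1) scale for NOX5 and the 43 other members that passed the filter, grouped by role; points are limma estimates from 2 libraries per group and bars are 95% intervals, with NOX5 as a diamond that has no bar and no test. Of the 43, 10 were called lower and GSTM3 was called higher, and the widest intervals belong to DUOX1, DUOX2, CYBB and AKR1C2.

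NOX5 was the one NADPH oxidase catalytic subunit with an appreciable level in these cells. It is an oxidase that calcium switches on directly through EF-hand domains, without the partner subunits that most of the family need. NOX5 (ENSG00000255346) had 4187 (siCt 1), 3844 (siCt 2), 2005 (siAXL 1) and 2004 (siAXL 2) normalized counts. The mean was 4016 ± 243 in siCt and 2004 ± 0.759 in siAXL (SD, n = 2 in each), which left 49.9%, with no overlap between the groups. The log2 fold change was -1.001, and leaving out any 1 library kept it between -1.06 and -0.94. NOX5 shares exon sequence on the same strand with SPESP1, whose row in the table had 0 reads.

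The other catalytic subunits were barely detected. NOX4, which makes hydrogen peroxide without outside activation, had 1 read in siAXL 2 and 0 in the other libraries. NOX1, the oxidase of colon epithelium, had 1 read in siCt 2 and 0 elsewhere. A count of 0 still allows up to 3 reads, which correspond to between 2.88 and 3.25 normalized counts in these libraries. CYBB, the phagocyte oxidase NOX2, had 110 reads over the 4 libraries, with 28.8 and 29.3 normalized counts in siCt and 28.2 and 23.6 in siAXL. That difference was within its error (log2 fold change -0.16, 95% interval -0.75 to 0.42).

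The dual oxidases DUOX1 and DUOX2, which make hydrogen peroxide at epithelial surfaces, were at a similarly low level. DUOX1 had 20.1 and 15.2 normalized counts in siCt and 31.1 and 23.6 in siAXL. DUOX2 had 6.71 and 8.67 in siCt and 12.6 and 15.7 in siAXL. Both siAXL libraries lay above both siCt libraries for each gene, but neither was called (adjusted p = 0.204 for DUOX1 and 0.168 for DUOX2). At 91 and 44 reads in all, the intervals of the log2 fold change were wide, from -0.10 to 1.30 for DUOX1 and from -0.05 to 1.66 for DUOX2. DUOX1 also shares exon bases with genes on the opposite strand, and whether reads were counted by strand is not given in the sources used here.

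CYBA, the p22phox subunit that stabilizes NOX1, NOX2 and NOX4 but is not needed by NOX5, was well expressed. It had 2631 and 2548 normalized counts in siCt and 2738 and 2871 in siAXL. Its log2 fold change of 0.11 (95% interval -0.02 to 0.25, adjusted p = 0.223) was not called.

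Per kilobase of transcript, NOX5 ranked 24th of the 46 members in siCt, at a mean of 1754 normalized counts per kilobase. CYBA had 3249 on the same scale, and CYBB, DUOX1 and DUOX2 had 6.71, 3.15 and 1.21. In siAXL the mean of NOX5 was 876 per kilobase. NOX5 therefore stayed well above the other catalytic subunits in both groups.

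Of NRF2 and its inhibitor, neither transcript was called. NFE2L2 (ENSG00000116044) had 5767 and 5862 normalized counts in siCt and 4995 and 5355 in siAXL, so both siAXL libraries were lower. The difference was -0.17 in log2 (standard error 0.0583, adjusted p = 0.0872), and scaling by total reads per library brought the adjusted p to 0.0424. NFE2L2 shares 54 exon bases with AGPS on the opposite strand, a gene with 4592 reads per library. KEAP1 had 3156 and 3259 normalized counts in siCt and 3251 and 3485 in siAXL, which overlap (log2 fold change 0.07, adjusted p = 0.475).

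The ratio of NFE2L2 to KEAP1 within each library was 1.83 and 1.799 in siCt and 1.54 in each siAXL library. It did not overlap between the groups. With 2 libraries against 2, an exact two-sided permutation test cannot give a p under 0.333, so the ratios are given as values without a test.

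Among the classical NRF2 targets, NQO1 fell and the others were not called. NQO1, which reduces quinones in a single step of 2 electrons, had 12210 and 12852 normalized counts in siCt and 9648 and 9969 in siAXL. The mean fell from 12531 ± 454 to 9808 ± 227 (SD, n = 2 in each), which is -0.35 in log2 (standard error 0.056, adjusted p = 0.0084). The 2 groups were well apart, and NQO1 was called under each of the 12 alternative settings.

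HMOX1, the heme oxygenase that NRF2 induces and BACH1 represses, pointed the other way. It had 745 and 818 normalized counts in siCt and 920 and 886 in siAXL, and its log2 fold change of 0.21 was not called (95% interval 0.02 to 0.40 before adjustment, adjusted p = 0.115). SRXN1, the sulfiredoxin that repairs overoxidized peroxiredoxins, had 203 and 248 normalized counts in siCt and 165 and 176 in siAXL (log2 fold change -0.40, adjusted p = 0.0912). Its value with 1 library left out lay between -0.54 and -0.25, and the call depended on which library was left out. ME1, the cytosolic malic enzyme that makes NADPH, did not separate the groups, with 2154 and 2191 in siCt and 2194 and 2031 in siAXL.

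Transcripts of both subunits of the first enzyme of glutathione synthesis fell, that of GCLM with a call that depended on single libraries. GCLC and GCLM are the catalytic and modifier subunits of glutamate-cysteine ligase, the rate-limiting enzyme of the pathway, and NRF2 is known to drive both. GCLC (ENSG00000001084) had 3045 and 3260 normalized counts in siCt and 2016 and 2055 in siAXL. The mean went from 3153 ± 152 to 2035 ± 27.1 (SD, n = 2 in each), which left 64.6%. The log2 fold change was -0.63 (standard error 0.0617, adjusted p = 0.00222), the lowest adjusted p among the 43 members compared by test, and GCLC was called under all 12 alternative settings.

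GCLM had 4513 and 4965 normalized counts in siCt and 3848 and 3890 in siAXL, which left 81.7%. The difference was -0.29 in log2 (standard error 0.0639, adjusted p = 0.0235). This call was lost without siCt 2 (-0.22, adjusted p = 0.0762), without siAXL 1 (-0.28, adjusted p = 0.0896) and without siAXL 2 (-0.30, adjusted p = 0.0701). It was also lost when every gene with at least 1 read was tested (adjusted p = 0.0775).

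The ratio of GCLC to GCLM within each library was 0.675 and 0.657 in siCt and 0.524 and 0.528 in siAXL. The catalytic subunit was thus lower relative to the modifier subunit in each siAXL library. The later enzymes were not called. GSS, the glutathione synthetase, had 4991 and 5029 normalized counts in siCt and 4540 and 4887 in siAXL (-0.09 in log2, standard error 0.059, adjusted p = 0.339). GSR, which regenerates reduced glutathione, overlapped between the groups (log2 fold change -0.07, 95% interval -0.21 to 0.08).

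In the cytosolic thioredoxin system, TXN and its reductase TXNRD1 fell. TXNRD1, a selenoenzyme that passes electrons from NADPH to thioredoxin, had 51598 and 57962 normalized counts in siCt and 39250 and 40412 in siAXL. The mean fell from 54780 to 39831, which left 72.7% (-0.46 in log2, standard error 0.073, adjusted p = 0.00853). TXNRD1 was called under all 12 alternative settings.

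TXN had 19453 and 19980 normalized counts in siCt and 15801 and 16801 in siAXL. Its difference of -0.27 in log2 (standard error 0.0579, adjusted p = 0.0208) lost the call without siCt 2 (-0.26, adjusted p = 0.0571), without siAXL 1 (-0.23, adjusted p = 0.13) and with every gene of at least 1 read tested (adjusted p = 0.0646). The mitochondrial pair was not called. TXN2 had a log2 fold change of -0.17 (adjusted p = 0.125) and TXNRD2 one of 0.17 (adjusted p = 0.207).

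TXNIP, which binds thioredoxin and limits glucose uptake, varied more between libraries of a group. It had 8803 and 11792 normalized counts in siCt and 12649 and 14496 in siAXL. Both siAXL libraries lay above both siCt libraries, but the log2 fold change of 0.41 (standard error 0.134) was not called (adjusted p = 0.0749). Leaving out 1 library gave values from 0.20 to 0.62, the highest without siCt 2, and the call depended on which library was left out. The ratio of TXNIP to TXN was 0.453 and 0.590 in siCt and 0.801 and 0.863 in siAXL, with no overlap.

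**Figure D2:**
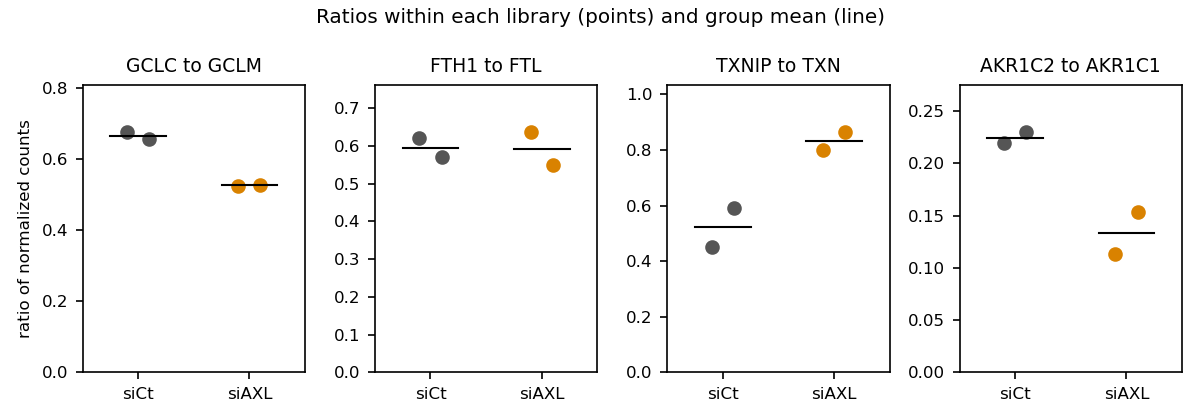
Ratio of the normalized counts of a pair of genes within each library (points, 2 per group), with the group mean as a line and each vertical axis starting at 0. The ratios of GCLC to GCLM (0.675 and 0.657 against 0.524 and 0.528), TXNIP to TXN and AKR1C2 to AKR1C1 do not overlap between siCt and siAXL, whereas that of FTH1 to FTL does.

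Of the 6 peroxiredoxins, thiol peroxidases that use thioredoxin or glutathione, PRDX3 fell and 5 were not called. PRDX3, the mitochondrial member, had 14384 and 15535 normalized counts in siCt and 12237 and 13128 in siAXL (-0.24 in log2, standard error 0.065, adjusted p = 0.0446). The call lay close to the threshold. It was lost without siCt 2 (-0.18, adjusted p = 0.188), without siAXL 1 (-0.19, adjusted p = 0.231), without siAXL 2 (-0.29, adjusted p = 0.0696) and with every gene of at least 1 read tested (adjusted p = 0.121).

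PRDX1 was the peroxiredoxin with the highest normalized count. It had 16202 and 17102 in siCt and 15105 and 16014 in siAXL, or -0.10 in log2 (standard error 0.060, adjusted p = 0.299). PRDX2 and PRDX4 were above in both siAXL libraries without a call (0.15, adjusted p = 0.183, and 0.16, adjusted p = 0.111). PRDX5 (0.02, 95% interval -0.10 to 0.15) and PRDX6 (0.04, 95% interval -0.08 to 0.165) had intervals that stayed within 0.165 of 0.

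No glutathione peroxidase, superoxide dismutase or catalase was called by limma, edgeR or DESeq2. At an unadjusted p under 0.05, limma had 1 of the 4 peroxidases higher (GPX8), and of the dismutases and catalase 1 higher (SOD3) and 1 lower (SOD2). GPX4, which reduces lipid hydroperoxides and so guards against ferroptosis, had 10331 and 11073 normalized counts in siCt and 9772 and 10475 in siAXL (-0.08 in log2, standard error 0.0633, adjusted p = 0.424). GPX8, of the endoplasmic reticulum, had 2330 and 2165 in siCt and 2526 and 2695 in siAXL (0.22, adjusted p = 0.0658). Leaving out 1 library gave GPX8 values from 0.16 to 0.27, and the call depended on which library was left out. GPX1 overlapped between the groups and GPX3, the secreted form, was above in siAXL by 0.14 (adjusted p = 0.208).

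SOD2, the mitochondrial manganese enzyme, had 10242 and 12178 normalized counts in siCt and 9165 and 9757 in siAXL. Its difference of -0.24 in log2 (standard error 0.0869, adjusted p = 0.0987) was not called. Leaving out 1 library gave values from -0.36 to -0.12, and the call depended on which library was left out. SOD2 shares 298 exon bases with WTAP on the opposite strand, a gene with 2562 reads per library. The cytosolic SOD1 (-0.09), the secreted SOD3 (0.20, adjusted p = 0.113) and CAT (0.09) had smaller values.

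The glutathione transferases split. MGST1, a membrane-bound transferase and peroxidase, had 5958 and 6206 normalized counts in siCt and 4807 and 4885 in siAXL. The mean fell from 6082 ± 176 to 4846 ± 55.1 (SD, n = 2 in each), which is -0.33 in log2 (standard error 0.0542, adjusted p = 0.00958), and it was called under all 12 alternative settings.

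GSTM3, a soluble transferase of the mu class, rose from 2800 and 2768 normalized counts in siCt to 3427 and 3763 in siAXL. The difference was 0.37 in log2 (standard error 0.0648, adjusted p = 0.0117), and the call was lost without siAXL 2 (0.30, adjusted p = 0.0588) and with every gene of at least 1 read tested (adjusted p = 0.051). GSTP1, the pi class enzyme, had 4382 and 4477 in siCt and 4923 and 5170 in siAXL (0.19, adjusted p = 0.0577), and edgeR's quasi-likelihood test on the recovered reads called it (adjusted p = 0.0373). GSTO1 overlapped between the groups (-0.14, adjusted p = 0.260). Its value with 1 library left out lay between -0.24 and -0.04, and the call depended on which library was left out.

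Of the aldo-keto reductases, which reduce aldehydes, ketones and steroids with NADPH, AKR1C2 had the largest relative fall among the members that were tested. It had 89.2 and 119 normalized counts in siCt and 39.8 and 53.1 in siAXL, which left 44.6%. The log2 fold change was -1.15 (standard error 0.228, adjusted p = 0.0169), at 298 reads in all 4 libraries. The call was lost without siAXL 1 (-0.95, adjusted p = 0.0518) and with every gene of at least 1 read tested (adjusted p = 0.0714).

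AKR1C1 had 406 and 519 normalized counts in siCt and 353 and 346 in siAXL (-0.39, adjusted p = 0.0773). Leaving out 1 library gave values from -0.57 to -0.22, and the call depended on which library was left out. AKR1C3 overlapped between the groups (-0.13, adjusted p = 0.366). AKR1B1, the aldose reductase and the highest of these 4 genes, had 20083 and 23733 in siCt and 20107 and 20677 in siAXL (-0.10, standard error 0.0835, adjusted p = 0.458). AKR1C1, AKR1C2 and AKR1C3 are neighbours similar in sequence, so the division of reads among them is uncertain. The ratio of AKR1C2 to AKR1C1 was 0.220 and 0.230 in siCt and 0.113 and 0.153 in siAXL. The counts assigned to the pair thus did not move by the same factor, subject to that uncertain division.

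Both ferritin chains, which store iron away from reactions that make radicals, fell by a similar amount. They were the members with the highest level per kilobase of transcript in siCt, with 122775 for FTL and 62276 for FTH1. FTH1 had 63456 and 64458 normalized counts in siCt and 47118 and 48560 in siAXL. The mean left was 74.8% (-0.42 in log2, standard error 0.0594, adjusted p = 0.00585), and FTH1 was called under all 12 alternative settings.

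FTL had 102483 and 113109 normalized counts in siCt and 74195 and 88440 in siAXL, which left 75.4%. The difference was -0.41 in log2 (standard error 0.0991, adjusted p = 0.0308), and the call was lost without siCt 2 (-0.34, adjusted p = 0.0695), without siAXL 1 (-0.28, adjusted p = 0.143) and with every gene of at least 1 read tested (adjusted p = 0.107). The ratio of FTH1 to FTL overlapped, at 0.619 and 0.570 in siCt against 0.635 and 0.549 in siAXL. Ferritin transcripts have many processed pseudogenes. Reads listed on 29 FTH1 pseudogene rows came to 2.41% of those on FTH1, and reads on 16 FTL pseudogene rows to 0.247% of those on FTL. The FTH1 pseudogene rows were lower in siAXL as well, with 1576 and 1640 normalized counts in siCt and 1042 and 1134 in siAXL.

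**Figure D3:**
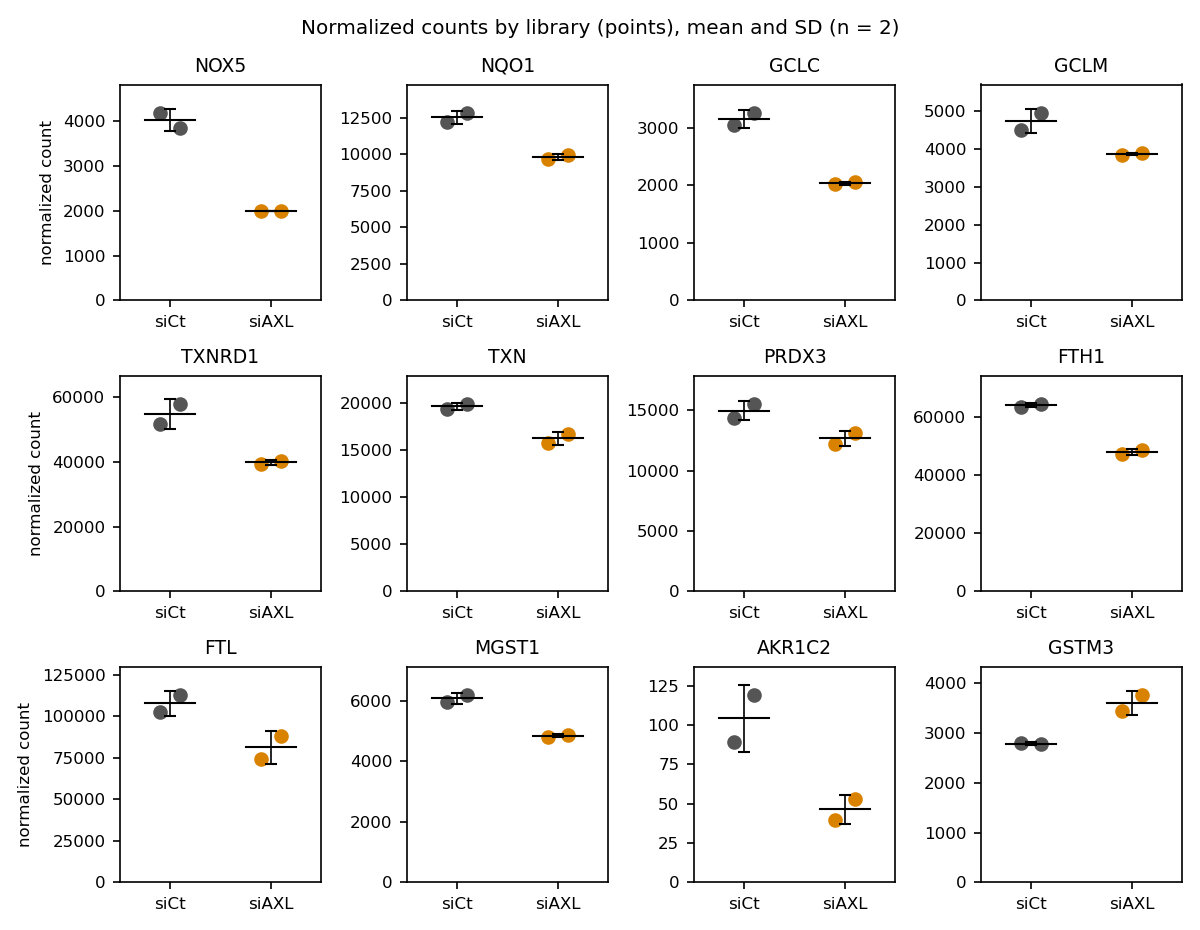
Normalized counts in each library (points; grey siCt, orange siAXL) for NOX5, which was not tested, the 10 members called lower and GSTM3, with the mean as a line and the SD as a bar (n = 2 in each group) on axes that start at 0. NOX5 lies at 4187 and 3844 in siCt and at 2005 and 2004 in siAXL, and no panel has overlapping groups.

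Of the genes that fell, 5 (NQO1, GCLC, TXNRD1, MGST1 and FTH1) were called under all 12 alternative settings, and the other 5 were GCLM, TXN, PRDX3, AKR1C2 and FTL. For all 10, siCt 2 was higher than siCt 1 and siAXL 2 was higher than siAXL 1. Over the 43 members, siCt 2 was higher than siCt 1 for 36 (83.7%), against 52.9% of all genes tested. No such share was taken for the siAXL libraries, so their order cannot be set against that of all genes. The part of the difference between the siCt libraries in the counts was not tested. Without siCt 2, 6 members were called lower, and without siAXL 1, 5 were.

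The core of the antioxidant response element, TGACNNNGC, was searched on both strands of the 300 bases around the start of each gene (250 before and 50 after, RefSeq, GRCh38.p14). The core can overlap the AP-1 site TGACTCA. Promoters of 38 of the 46 members were in the table, and the windows of 5 held the core, which is 13.2%, against 13.6% of all promoters. Of the members called lower, 2 of the 9 with a promoter held it, and of those not called lower 3 of 28. Among promoters of genes tested the share was 15.0%. The windows below show where the letters of the core occur, and binding of NRF2 was not measured. Each has 29 bases, 5′ to 3′ on the strand that holds the core, with the core in capitals.
GCLM (chr1:93909446-93909474, + strand): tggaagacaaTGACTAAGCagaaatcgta
TXNRD1 (chr12:104215670-104215698, + strand): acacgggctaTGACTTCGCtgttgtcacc
TXNRD1 (chr12:104215761-104215789, - strand): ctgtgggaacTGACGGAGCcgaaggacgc
GSTP1 (chr11:67583736-67583764, + strand): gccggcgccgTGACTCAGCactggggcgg
ME1 (chr6:83431170-83431198, - strand): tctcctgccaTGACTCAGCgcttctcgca
GCLM and TXNRD1 fell. GSTP1 and ME1, whose windows printed here hold TGACTCA, were not called. The core of GCLM begins 34 bases before the start of the gene and those of TXNRD1 99 and 8 bases before it. ME1 held a second core, and GSTO1, which was not called, held 2, all of them in windows without TGACTCA. The part of these letters in the changes was not tested. The windows of NQO1, GCLC, TXN, PRDX3, MGST1, AKR1C2 and FTL held none, which says only that these letters are not within these 300 bases.

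A further list of 99 genes of the same pathways was compared in the same way. Of these, 88 passed the filter on low counts, 15 rose and 17 fell (12 and 23 with scaling by total reads per library), and 56 were not called, a share called of 36.4% against 18.7% of all genes tested. The list was written from general knowledge with earlier results of these libraries known. Over all genes tested, limma called 7.91% lower and 10.8% higher. Among the 28 tested further NRF2 targets, 7 fell and 0 rose by limma, a share called of 25%. Those that fell included AKR1B10, ALDH3A1, ALDH3A2, TRIM16L, TALDO1 and ABCC1. TALDO1 is a transaldolase of the pentose phosphate pathway. TALDO1, ABCC1 and TRIM16L each lost the call without siCt 2, siAXL 1 or siAXL 2, with adjusted p from 0.057 to 0.202. SLC7A11, the cystine transporter that feeds glutathione synthesis, had a log2 fold change of 0.01 (adjusted p = 0.937). edgeR and DESeq2 also called 0 higher, and limma had 0 higher at an unadjusted p under 0.05. The lowest adjusted p of a further NRF2 target with a higher value in siAXL was 0.158, in CBR3. These results are from fits of all 4 libraries with no term for the replicate number. Without siCt 1, the log2 fold change went from 0.27 to 0.38 in CBR3 and from 0.17 to 0.27 in ABCC3. Both were called higher in some alternative settings, so the count of 0 higher did not hold in every setting.

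AKR1B10, an aldo-keto reductase that NRF2 induces, had the largest fall of this list. It had 192 and 239 normalized counts in siCt and 44.7 and 66.8 in siAXL, which left 25.9% (-1.95 in log2, standard error 0.224, adjusted p = 0.00329). ALDH3A1, which oxidizes aldehydes, had 441 and 414 in siCt and 284 and 264 in siAXL (-0.64, adjusted p = 0.0081). ALDH3A2, which oxidizes fatty aldehydes, had 9480 and 9484 in siCt and 7619 and 7311 in siAXL (-0.35, adjusted p = 0.00765).

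Of the 13 regulators and partners of NRF2, 4 rose and 3 fell. BACH1 and BACH2, which compete with NRF2 for small MAF partners and repress its targets, both rose, together with the NRF2 relatives NFE2L1 and NFE2L3. NFE2L3 lost its call without siAXL 1 (adjusted p = 0.0561) or siAXL 2 (0.101). BACH2 had 69.0 and 61.8 normalized counts in siCt and 136 and 144 in siAXL (1.09 in log2, standard error 0.156, adjusted p = 0.00599). NFE2L1 had 15811 and 15949 in siCt and 20002 and 21095 in siAXL (0.37, adjusted p = 0.00699). BACH1 was at a higher level than BACH2 and rose by 0.31 (adjusted p = 0.0273), a call lost without siAXL 2 (0.27, adjusted p = 0.107) and with every gene of at least 1 read tested (adjusted p = 0.0952).

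SQSTM1, MAFG and PGAM5 fell. SQSTM1, the p62 receptor that binds KEAP1 and is itself an NRF2 target, had 49117 and 57348 normalized counts in siCt and 32539 and 35871 in siAXL (-0.64, standard error 0.0898, adjusted p = 0.00577). MAFG, a small MAF partner of NRF2, had a log2 fold change of -0.27 (adjusted p = 0.018), and its call was lost without siCt 2 (adjusted p = 0.0533), siAXL 1 (0.094) or siAXL 2 (0.0659) and with every gene of at least 1 read tested (0.0549). PGAM5, a mitochondrial phosphatase that binds KEAP1, had 1959 and 1971 in siCt and 1402 and 1447 in siAXL (-0.46, adjusted p = 0.00458).

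The further glutathione enzymes moved in both directions, with 4 higher (GSTM2, GSTA4, GPX7 and GLRX) and 5 lower (GGCT, CHAC2, GLRX2, GLRX3 and GSTZ1) among 21 tested. edgeR called 3 higher and 5 lower, and DESeq2 3 higher and 4 lower. GSTA4 was not called by edgeR (adjusted p = 0.0522), nor GLRX by DESeq2 (0.0559). GSTA4 also lost its call with TMM scaling (0.0529) and total-read scaling (0.0625). With every gene of at least 1 read tested, GSTA4 (0.125), GLRX (0.0853), GPX7 (0.0621) and GSTZ1 (0.0562) lost theirs. GLRX lost its call without any 1 of the 4 libraries (adjusted p from 0.0595 to 0.196), GSTZ1 without siAXL 1 (0.12) or siAXL 2 (0.0625), GSTA4 without siAXL 1 (0.246), and GPX7 (0.0808) and GLRX2 (0.0719) without siAXL 2. GGCT and CHAC2, which belong to glutathione breakdown, fell by 0.58 (adjusted p = 0.00562) and 0.45 (adjusted p = 0.0257) on the log2 scale. The call of CHAC2 was lost without siCt 2 (adjusted p = 0.0534), siAXL 1 (0.0921) or siAXL 2 (0.106), with every gene of at least 1 read tested (0.0585) and in DESeq2 (0.0689). GGCT had 1459 and 1623 normalized counts in siCt and 986 and 1071 in siAXL. GLRX3, a glutaredoxin of iron-sulfur cluster handling, had 4114 and 4180 in siCt and 3373 and 3415 in siAXL (-0.29, adjusted p = 0.0136), a call lost without siAXL 1 (-0.28, adjusted p = 0.0736) and without siAXL 2 (-0.30, adjusted p = 0.0561). GSTM2, a neighbour of GSTM3 and similar in sequence to it, rose by 0.48 (adjusted p = 0.0183), a call lost without siAXL 1 (adjusted p = 0.083) or siAXL 2 (0.0773).

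Among 13 genes of thiol repair and stress sensing, TXNRD3, MSRA, MSRB3 and SESN3 rose and SESN1 and OXSR1 fell by limma. DESeq2 called only 1 of the 4 higher, MSRB3 (adjusted p = 0.179 for TXNRD3, 0.068 for MSRA and 0.0515 for SESN3). TXNRD3 lost its limma call without any 1 of the 4 libraries (adjusted p from 0.0723 to 0.186). MSRA lost it without siCt 2 (0.0731), siAXL 1 (0.0873) or siAXL 2 (0.191), and SESN3 without siCt 1 (0.0907), siAXL 1 (0.0745) or siAXL 2 (0.189). SESN1 lost it without siAXL 1 (0.095) and OXSR1 without siAXL 2 (0.116). MSRB3, a methionine sulfoxide reductase, had 1221 and 1197 normalized counts in siCt and 1502 and 1619 in siAXL (0.37, adjusted p = 0.0142), a call lost without siAXL 2 (0.31, adjusted p = 0.0778) and with every gene of at least 1 read tested (adjusted p = 0.0504). Of 9 tested partners of the NADPH oxidases, RAC1 and SH3PXD2B rose and 0 fell by limma, edgeR or DESeq2, with 3 lower at an unadjusted p under 0.05 in limma. RAC1, the small GTPase that activates NOX1 and NOX2, had 11577 and 11133 in siCt and 13667 and 14381 in siAXL (0.30, adjusted p = 0.014), a call lost without siAXL 2 (0.27, adjusted p = 0.0746) and with every gene of at least 1 read tested (adjusted p = 0.0517). SH3PXD2B, an adaptor of oxidases and podosomes, rose by 0.37 (adjusted p = 0.0303), a call lost without siAXL 1 (adjusted p = 0.117) or siAXL 2 (0.137), with every gene of at least 1 read tested (0.0646) and in DESeq2 (0.0785).

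Of the 4 tested alpha-arrestins, the family of TXNIP, ARRDC3 rose and the others were not called. ARRDC3 had 2962 and 2804 normalized counts in siCt and 4931 and 4811 in siAXL (0.76 in log2, standard error 0.0577, adjusted p = 0.00136). ARRDC4, which glucose induces together with TXNIP, had 213 and 234 in siCt and 251 and 309 in siAXL (0.32, adjusted p = 0.153).

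**Figure D4:**
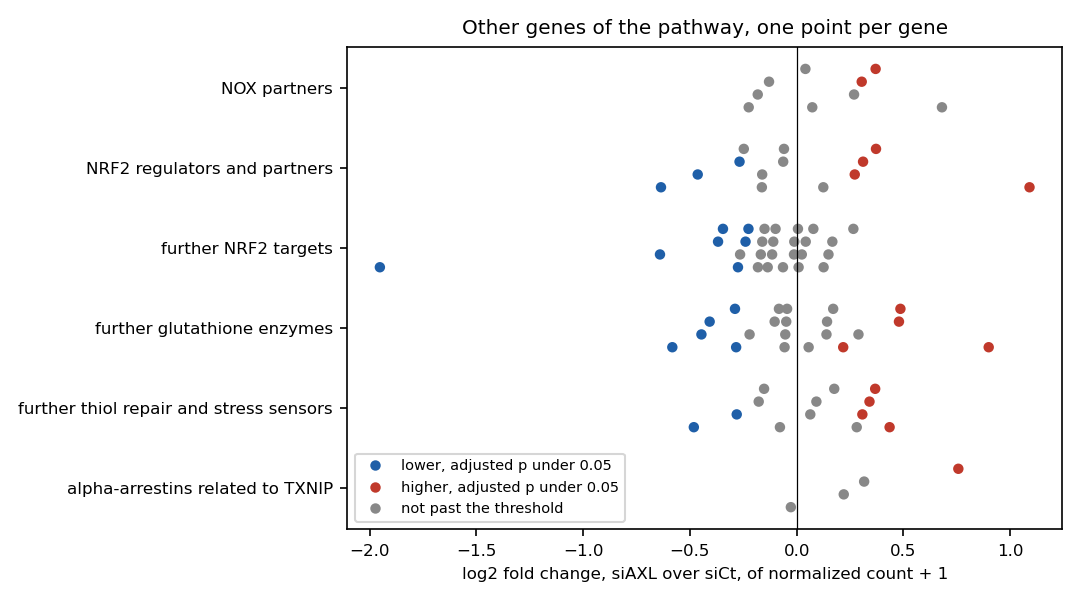
Log2 fold change of siAXL over siCt on the log2(normalized count + 1) scale for the 88 tested genes of the further list, 1 point per gene in 6 groups, with the vertical place within a group only separating the points. The further NRF2 targets hold 7 genes called lower, with AKR1B10 at -1.95 farthest to the left, and the regulators hold BACH2 at 1.09.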

How the data were processed

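RNA of 2 siCt and 2 siAXL libraries was sequenced by the authors. The submitters' processing notes name CASAVA 1.8, TopHat2 2.0.10, HTSeq 0.5.3, DESeq2 1.4.5 and the build GRCh37. The authors deposited 1 table of normalized counts, a signal made by dividing reads per gene by a DESeq2 size factor for each library. The table also holds the authors' log2 fold changes, standard errors and Wald scores, with their p-values, which were deposited beside the means and were not used. Annotation release, strand setting and the treatment of reads that map to several places are not given in the sources used here. In each library 100% of the values were whole multiples of 1 read (within 0.05), so reads were recovered by division.

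The main test was limma 3.58.1 (lmFit, eBayes with trend) in R 4.3.3 on log2(normalized count + 1), with no covariates. Genes passing filterByExpr on the recovered reads were tested (16064), with Benjamini-Hochberg adjustment. edgeR 4.0.16 (quasi-likelihood, TMM, 3122 genes called) and DESeq2 1.42.0 (2598 of 12949) on the recovered reads were alternatives. The others were total-read and TMM scaling, pseudocounts of 0.5 and 8, a filter of 1 read, a block by replicate number, and each library left out. limma and edgeR were also run on simulated independent libraries with the same dispersion for every gene. Such a run does not measure the error of the calls made here.

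Members and lists were chosen with earlier results of these data known. All members are accounted for by role, and values are given in full for those called, NOX5 and the highest of each role. Of the 99 further genes, the 12 with the smallest adjusted p have full values. All symbols were found in the table. Transcript lengths were medians of the principal transcripts of GENCODE 29, 1 of the 46 matched by symbol, and were used only for levels per kilobase. Overlaps were taken from GENCODE 29. Depth limits precision for genes of few reads, and limits for a count of 0 cover counting error only. Some results are not reported here.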

Additional observations from a re-analysis of the deposited data

How the results depend on the processing

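Few reads limited NOX4, NOX1, CYBB, DUOX1, DUOX2 and AKR1C2, and 2 libraries per group leave the spread of any 1 gene poorly known. No member or further gene that was called changed direction under any alternative run. The count of members called lower was 10, and ranged from 5 to 14 with 1 library left out (5 without siAXL 1, 6 without siCt 2, 8 without siAXL 2 and 14 without siCt 1), and that of members called higher from 0 to 2 (main 1). For the further list the counts ranged from 7 to 22 lower (main 17) and from 4 to 17 higher (main 15), with 8 lower and 7 higher without siAXL 1 and 7 lower and 4 higher without siAXL 2. In a fit that leaves out a library, the lone library of its group is assumed to vary like the other group. With every gene of at least 1 read tested, 5 members were lower and 0 higher, and 9 further genes were lower and 4 higher; the cause was not tested. Scaling by total reads gave 11 members lower and 1 higher, and 23 further genes lower and 12 higher. With TMM scaling, and with edgeR on the recovered reads, 2 members were called higher. With the replicate number as a block, 19 members were lower and 11 higher, and 34 further genes were lower and 24 higher. CBR3 and ABCC3 were among the further genes called higher with this block. The labels give a shared number and no shared culture or day, and deviations of same-numbered libraries correlated at 0.271 across genes, so the block result is given here alone. NOX5 moved under the alternatives by less than a standard error taken from the spread within its 2 groups. Leaving out 1 library cannot move it farther than that, so those runs do not measure its stability. The median of the members moved by less than the median standard error of a single member, which is not an error of the median. The scaling alternatives shifted the median of all genes by -0.029 (total reads) and 0.0068 (TMM).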
